A study of Homo sapiens with 2 samples.

Results

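The large (60S) ribosomal subunit protein genes were examined in direct RNA sequencing reads of GM12878, a human cell line of B-lymphoblasts made with Epstein-Barr virus. The members were the 45 cytosolic genes whose symbol in the deposited table was exactly that of an RPL or RPLP gene, so that pseudogenes, readthrough genes and paralogs were kept apart. They made up 45 of the 16645 annotated genes with a read and 4069 of the 237608 transcript models. The rule picks genes by name and uses no measured value.

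The study asked how well a long-read pipeline finds and counts transcripts. In its nanopore arm, native RNA strands of untreated GM12878 were read in 2 replicate libraries, which form 1 group, with no second condition. Per the labels, depleted RNA was the input, and a strand made by reverse transcriptase opened the folds of the RNA. The labels do not say whether the libraries came from separate cultures, so a p-value here measures only the difference between the reads of these libraries, which may be technical. Replicate 1 held 1360368 reads and replicate 2 held 1510998. Of the B cell markers, CD74 had 10565 and 12221 reads and PAX5 had 54 and 70, while the T cell genes CD3D and CD8A, the monocyte gene LYZ, the erythroid genes HBG1 and GATA1 and the hepatocyte gene ALB had no reads in the table used here. CD3E, the monocyte gene CD14 and the fibroblast gene COL1A1 had between 2 and 16 reads in each library.

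The large subunit carries the centre that joins amino acids and the tunnel through which the new chain leaves. Its proteins are needed in equal numbers, with the exception of the stalk proteins RPLP1 and RPLP2, which are present in pairs. Their mRNAs belong to the TOP class, named for a pyrimidine tract at the very 5′ end through which growth signals regulate their translation. Many of these genes have left processed pseudogenes, intronless copies of the mRNA inserted elsewhere in the genome.

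The 45 genes received 171530 reads in replicate 1, or 12.6% of the library (95% Wilson interval 12.55 to 12.66%), and 192238 reads in replicate 2, or 12.7% (12.67 to 12.78%). The mean share was 12.67% ± 0.0803 (SD, n = 2). The 32 small-subunit (RPS) genes received 10.01% and 10.57%. In direct RNA sequencing 1 read stands for 1 RNA strand, so levels were given as counts per 1000000 library reads (CPM) and were not divided by length. All intervals cover counting error only.

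Most members lay close together in level. The median of the mean CPM was 2775, the quartiles were 2132 and 3402, and 39 of the 45 genes were within a factor of 2 of the median. The range was nonetheless wide, 50.1-fold from RPL21 to RPLP0, because a few genes stood far below the others. Across the 45 genes the log2 CPM of the libraries had a Spearman rho of 0.98 (Pearson r 0.99), a description over genes that share the libraries and the pipeline.

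The stalk genes were among the most abundant. RPLP0 (ENSG00000089157.15, chr12:120196686-120201235, minus strand, GRCh38), the protein that anchors the stalk to the ribosomal RNA, had 8978 and 10806 reads, or 6600 and 7152 CPM (mean 6876 ± 390, SD, n = 2), the highest level of all members. RPLP1, at chr15:69452784-69456194, had 5019 and 5085 CPM, and RPLP2, at chr11:809647-812880, had 3686 and 3779 CPM. The order RPLP0, RPLP1, RPLP2 was the same in both libraries, with gaps larger than the differences between the libraries. RPLP1 and RPLP2 bind the translation factors at the tip of the stalk.

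After RPLP0, the highest levels were those of RPL13 (5440 and 5588 CPM), RPLP1, RPL13A (4747 and 4986 CPM) and RPL37A (4379 and 4430 CPM). RPL13A is known also for a role outside the ribosome, in which it silences inflammatory mRNAs after interferon gamma. These 5 genes did not overlap in level with one another between the libraries, and each kept its rank.

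Genes with well-known roles in assembly and in the nascent chain tunnel were spread over the range. RPL3, which lies near the catalytic centre and joins early, had 4014 and 4345 CPM. RPL10, which joins late in the cytoplasm and completes the subunit, had 4103 and 4066 CPM. These levels overlapped between the libraries, so the order of RPL3 and RPL10 was not resolved. RPL5 and RPL11, which enter together with 5S ribosomal RNA and can bind the p53 regulator MDM2 when assembly fails, had 3190 and 3536 CPM and 2582 and 2631 CPM. RPL4, which lines the tunnel, had 2902 and 2408 CPM, and RPL39, a short protein at the tunnel exit, had 1516 and 1357 CPM, below the lower quartile of the members. The levels of RPL4 and RPL11 overlapped.

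At the low end were RPL21 (172 and 224 reads, 126 and 148 CPM), RPL36A (302 and 349 reads, 222 and 231 CPM), RPL9 (295 and 503 reads, 217 and 333 CPM), RPL41 (544 and 737 reads, 400 and 488 CPM) and RPL22 (1106 and 1163 CPM). RPL22 is known in cells carrying Epstein-Barr virus for binding the viral RNA EBER1. RPL21 was lowest in both libraries, whereas RPL36A and RPL9 overlapped. The other 35 genes, the named genes of the preceding paragraph and RPLP2 among them, lay between RPL7 at a mean of 1391 CPM and RPL7A at 4299 CPM.

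**Figure D1:**
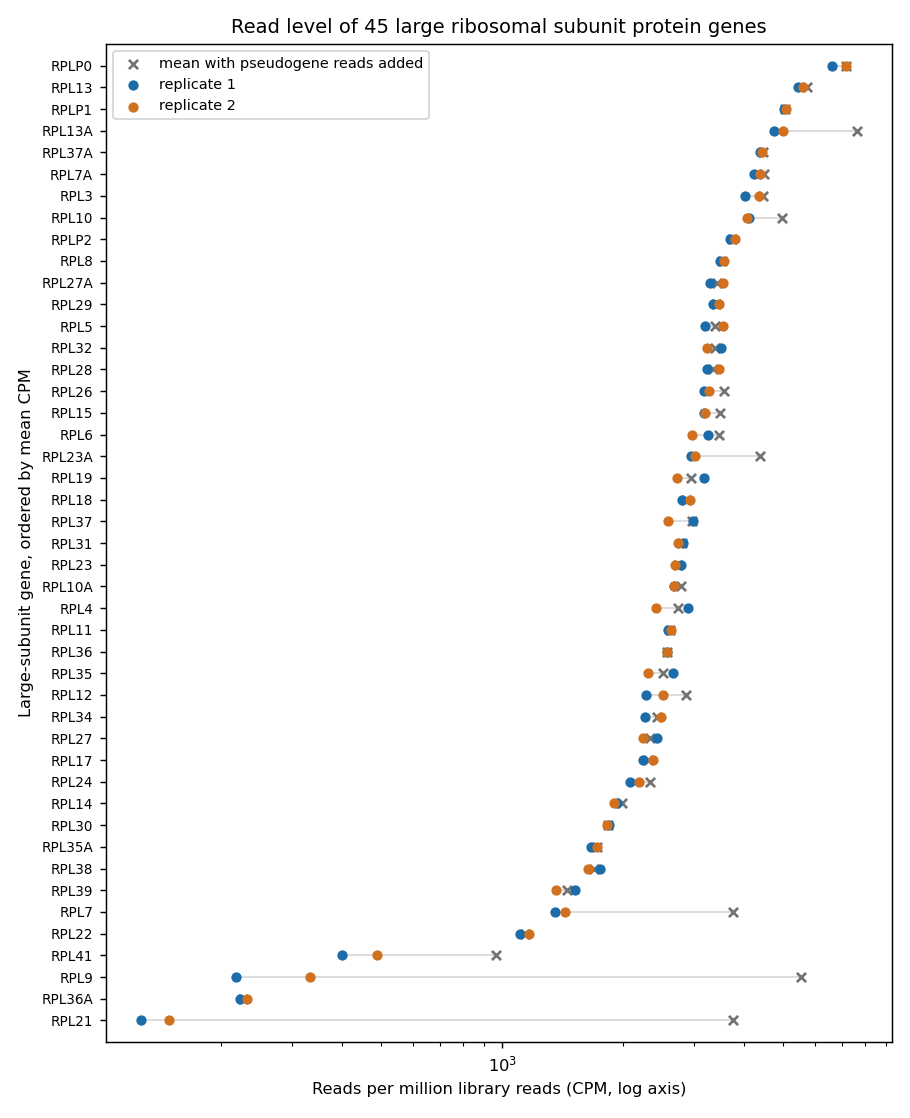
CPM (log axis) of each of the 45 genes, ordered by the mean; coloured points are replicates 1 and 2, and grey crosses are the mean of both libraries after the reads of the pseudogenes named after the gene were added. RPL21, RPL9 and RPL7 moved from the low end to 3744, 5523 and 3745 CPM with those reads added, while RPL36A stayed at 226 CPM.

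Several of the low genes had more reads in pseudogenes than in the gene itself. Pseudogenes carrying a member's name followed by P and a number had reads at 148 loci and belonged to 37 of the 45 members. They received 25441 reads in replicate 1 (1.87% of the library) and 32233 in replicate 2 (2.13%). For RPL9, RPL21, RPL7 and RPL41, pseudogene reads outnumbered those of the gene in both libraries. How the authors placed reads that align equally well to a gene and its copy is not given in the sources used here, and the transfer of reads between a gene and its copies was not tested, so the levels of these 4 genes and of their copies are uncertain.

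For RPL9 the pseudogenes held 95.7% of the reads of the gene and its copies together in replicate 1 and 94.5% in replicate 2. RPL9P9 (chr15:82372196-82372912, minus strand) had 4531 and 5863 reads, and RPL9P7 (chrX:23836742-23837321, minus strand) had 2017 and 2721. RPL9P9 matched the RPL9 coding sequence at 99.8% of 576 bases, with 1 mismatch, and RPL9P7 at 99.7%, with 2. The copies thus had more reads than RPL9 in each library while being nearly the same in sequence. With the copies added, RPL9, otherwise near the bottom of the range, had 5031 and 6015 CPM.

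For RPL21 the pseudogenes held 96.6% and 96.1% of the joint reads. RPL21P16 (chr10:120354701-120355183, minus strand) alone had 4191 and 4652 reads, and its sequence was identical to the RPL21 coding sequence over all 480 bases. With the copies added, RPL21 had 3671 and 3817 CPM. RPL7, for which the copies held 61.9% and 63.7% of the joint reads, had most of them in RPL7P9 (2804 and 3460 reads, 99.7% identity). RPL41, whose product is the shortest of the ribosomal proteins, had 55.8% and 52.4% in copies, mainly RPL41P1 (chr20:21755270-21755350) with 518 and 637 reads. RPL41P1 and RPL41P2 were both identical to the 75 coding bases of RPL41.

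The coding bases that a gene and its most-read copy share are shown for these cases, with GRCh38 sequence on the strand of each gene, 5′ to 3′; capitals mark the bases at which the pair differs. The RPL41 pair is the whole coding sequence without its stop codon, the RPL9 pair is coding bases 307 to 366, which hold the only mismatch, and the RPL21 pair is coding bases 1 to 60.
RPL41: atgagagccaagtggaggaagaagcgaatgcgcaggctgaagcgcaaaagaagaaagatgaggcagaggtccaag
RPL41P1: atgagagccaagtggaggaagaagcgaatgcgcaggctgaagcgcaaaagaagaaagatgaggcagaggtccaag
RPL9: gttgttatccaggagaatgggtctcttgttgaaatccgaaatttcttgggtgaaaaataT
RPL9P9: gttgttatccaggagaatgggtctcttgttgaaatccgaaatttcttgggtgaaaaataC
RPL21: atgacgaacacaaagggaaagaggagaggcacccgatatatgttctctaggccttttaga
RPL21P16: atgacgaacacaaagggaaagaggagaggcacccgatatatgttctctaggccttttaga

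Copies also carried many reads where the gene itself was abundant. RPL13AP5 (3717 and 4034 reads, 99.5% identity) brought RPL13A to a mean of 7609 CPM, above RPLP0. RPL23AP42 (1757 and 2122 reads) brought RPL23A, which lies at the tunnel exit, to 4383 CPM. With all pseudogene reads added, the range narrowed to 33.6-fold, from RPL36A to RPL13A. No pseudogene named after RPL36A had reads, so its level was the same in both counts.

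**Figure D2:**
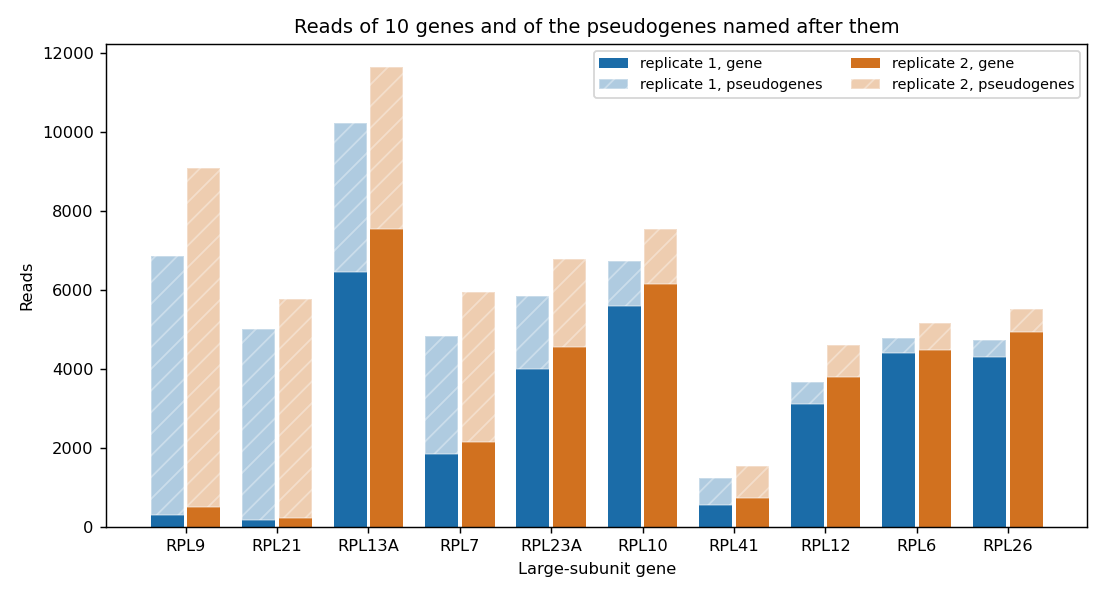
Reads in each library for the 10 genes with the most pseudogene reads; solid bars are reads of the gene and hatched bars, stacked on them, reads of all pseudogenes named after it. The hatched part is the larger one for RPL9, RPL21, RPL7 and RPL41 in both libraries.

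Of the reads in pseudogenes, 93.2% in replicate 1 and 86.3% in replicate 2 were in known models, and 6.65% and 13.5% were in genomic models, which lie over a gene but fit none of its splice patterns. In RPL9P9, known reads numbered 2882 and 1555, whereas genomic reads numbered 1648 and 4308.

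Expressed paralogs added less. RPL22L1, the paralog of RPL22, had 795 and 891 reads, and RPL36AL had 495 and 545, more than the 302 and 349 of RPL36A in both libraries. RPL3L, known as a muscle paralog, had 77 and 286 reads. RPL7L1, RPL26L1 and RPL39L had between 58 and 156 reads in each library, and RPL10L, a testis paralog, had no reads in the table used here, which allows at most 3 reads in a library. Of the readthrough genes, RPL17-C18orf32 had 3 and 9 reads and RPL36A-HNRNPH2 had 5 and 2.

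Annotated starts of the members were searched for the letters CTTTC, a pyrimidine run as found at TOP starts. Of the 45 genes, 38 had a match in the RefSeq start table (GRCh38.p14), with 50 starts in all. The 30 bases centred on the start held CTTTC on the gene's strand at 20 of the 50 starts (40%), in 20 genes. Among the RPS genes it was found at 12 of 28 starts (42.9%), and among all 35116 starts in the table at 1550 (4.41%). On the other strand, where the run reads GAAAG, the shares were 4% for the members and 3.21% for all starts.

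The windows of the highest and lowest members with an entry are shown because they cover the whole range of levels. The first CTTTC of each window is in capitals. Later ones, as in RPL21 and RPL36A, are left in small letters. RPL13 is shown by the start that holds CTTTC, out of 3 listed. The windows are RPLP0 chr12:120201097-120201126 (minus strand), RPL13 chr16:89560667-89560696, RPLP1 chr15:69452803-69452832, RPL13A chr19:49487593-49487622, RPL37A chr2:216498829-216498858, RPL22 chr1:6199581-6199610 (minus), RPL41 chr12:56116618-56116647, RPL9 chr4:39458908-39458937 (minus), RPL36A chrX:101390996-101391025 and RPL21 chr13:27251543-27251572.
RPLP0: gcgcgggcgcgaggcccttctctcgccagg
RPL13: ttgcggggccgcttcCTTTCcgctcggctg
RPLP1: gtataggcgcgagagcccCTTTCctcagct
RPL13A: cgacaaaacctcctccttttccaagcggct
RPL37A: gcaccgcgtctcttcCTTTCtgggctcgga
RPL22: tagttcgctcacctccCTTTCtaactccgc
RPL41: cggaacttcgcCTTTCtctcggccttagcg
RPL9: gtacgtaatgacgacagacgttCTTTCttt
RPL36A: tttgcctcgcggtttCTTTCtttccgcgcc
RPL21: cggccccgcctCTTTCctttcggccggaac

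All 5 of the lowest members and 3 of the 5 highest held CTTTC, against 20 of all 38 members with an entry. These counts were not tested against each other. CTTTC is an exact string, and windows without it can hold other pyrimidine runs, as those of RPLP0 and RPL13A do. Lowest and highest here follow the order of levels without pseudogene reads. With those reads added RPL9 and RPL21 were no longer among the lowest and RPL13A was the highest. The table of reads gives no 5′ end positions, so the start used by the reads themselves was not seen, and a match is a description of the annotated start only.

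The next question was how the reads of the members matched the annotation. Each read belongs to a transcript model: a known model has the structure of a transcript in the annotation, whereas an incomplete splice match (ISM) shows part of that transcript's junctions in a row. NIC models join splice sites of the annotation in other combinations, and NNC models contain a splice site that is not annotated. Known models held 72.4% of the members' reads in replicate 1 (95% Wilson interval 72.2 to 72.6%) and 65.5% in replicate 2 (65.3 to 65.7%), a mean of 68.96% ± 4.88 (SD, n = 2). ISM models held 22.1% and 28.6% (25.4% ± 4.58), genomic models 0.968% and 2.08%, NIC models 1.497% and 1.35%, and NNC models 3.00% and 2.46%. Known reads were therefore a smaller part, and ISM and genomic reads a larger part, of replicate 2.

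The same shift was present outside the large subunit. Known models held 68.0% and 60.9% of RPS reads, and 52.4% and 41.1% of the reads of all other annotated genes, so the known share was higher in the members than in those other genes in both libraries. Genomic models held 14.0% and 19.6% of the reads of the other genes.

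Members differed far more from one another than the libraries differed within a member. The known share ran from 2.77% (RPL6) to 98.4% (RPL39) in replicate 1 and from 1.61% (RPL6) to 93.5% (RPL36) in replicate 2. The Spearman rho of the known share between the libraries was 0.97 over the 45 genes. The highest mean shares were those of RPL39 (98.4% and 92.5%), RPL36 (96.1% and 93.5%) and RPL35 (96.5% and 92.5%), and these 3 were not separated from one another. The lowest were those of RPL6 (2.77% and 1.61%), RPL7A (3.25% and 3.32%) and RPL34 (8.73% and 7.77%), which kept their order.

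**Figure D3:**
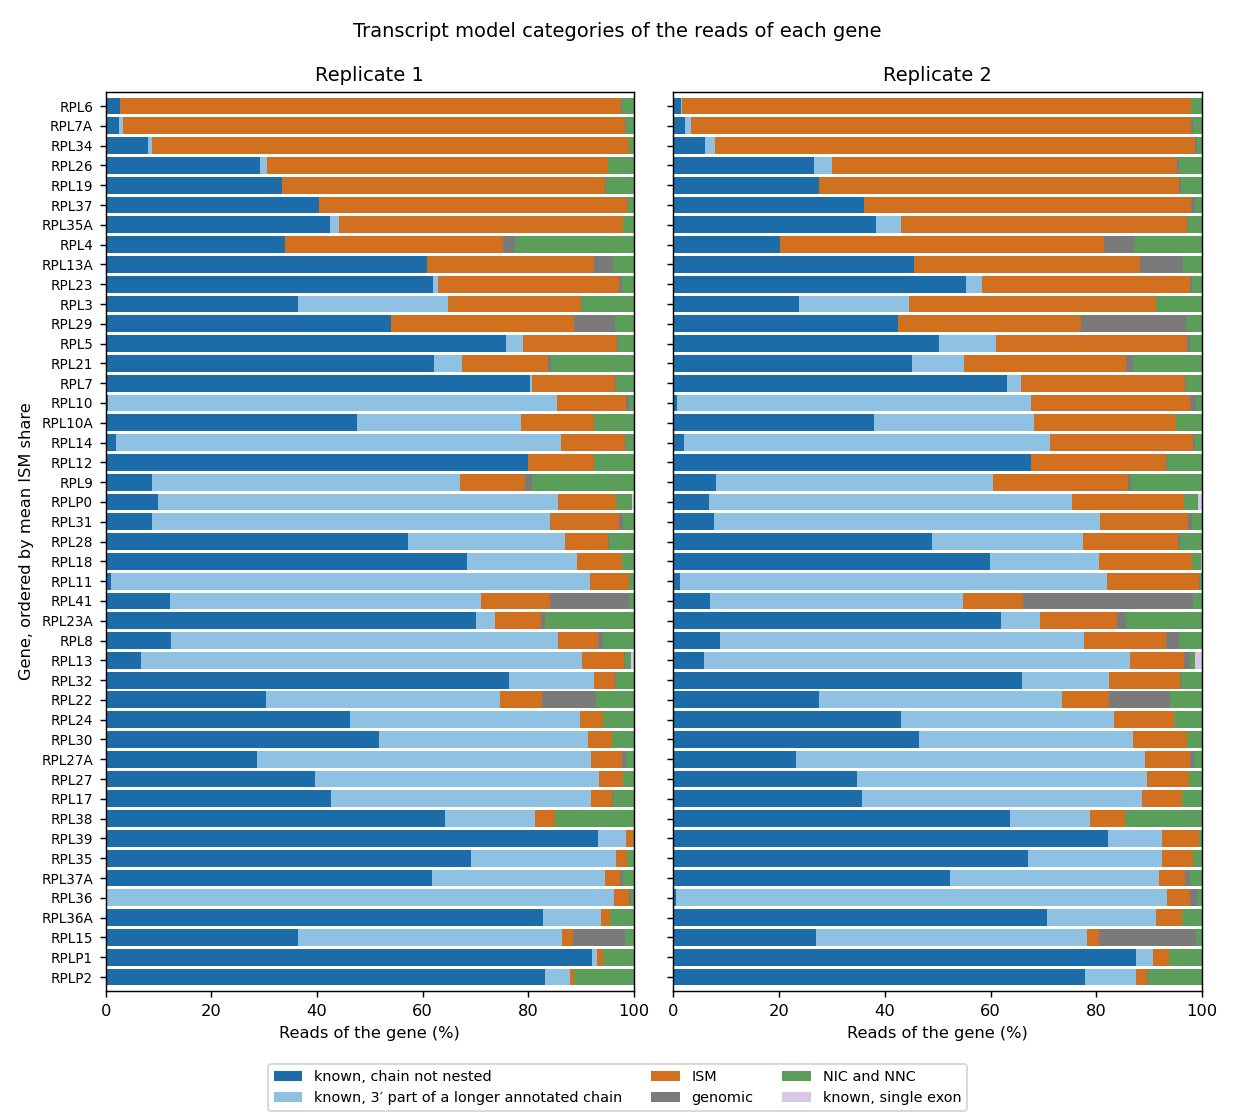
Share of each gene's reads (%) in each kind of transcript model, with 1 bar per gene and 1 panel per library, genes ordered by mean ISM share; known models are split into those whose junctions are the 3′ part of a longer annotated transcript (light blue) and the rest (dark blue). RPL6, RPL7A and RPL34 are almost all ISM in both panels, and the stalk genes RPLP1 and RPLP2 have the least.

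The model with the most reads was the same one in both libraries for all 45 genes. It was a known model in 38 genes and an ISM model in 7, namely RPL6, RPL7A, RPL19, RPL26, RPL34, RPL35A and RPL37. In none of the 45 was it a NIC, NNC or genomic model.

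In each of those 7 genes the leading ISM model had exactly 1 exon fewer than the gene's most-read known model. By deposited length the ISM model was longer in RPL6 (2392 against 1074 bases) and RPL7A (1528 against 891). The same held in RPL19 (1526 against 737) and RPL34 (1785 against 441). The ISM model was shorter in RPL26 (491 against 528), RPL35A (425 against 1444) and RPL37 (693 against 7686). RPL6, whose leading model had 6 exons against 7 in RPL6-202, gave it 87.7% of its reads in replicate 1 and 78.7% in replicate 2. RPL34, with 4 exons against 5 in RPL34-202, gave it 85.6% and 80.0%. RPL7A, with 7 against 8 in RPL7A-202, gave it 73.8% and 60.1%. In these 3 genes the leading known model had at most 5.18% of the reads.

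RPL26 gave 61.0% and 61.7% of its reads to a model with 3 exons, where RPL26-214 has 4. The leading ISM models of RPL19 (46.2% and 45.2%), RPL35A (46.8% and 40.4%) and RPL37 (46.4% and 48.3%) competed with a known model that was also well read: RPL19-201 had 32.9% and 27.4%, RPL35A-206 had 39.6% and 35.6%, and RPL37-201 had 40.3% and 35.8%. RPL26 and RPL35A are known, respectively, for a role in p53 mRNA translation and as a gene of Diamond-Blackfan anaemia. The leading ISM model kept the 3′ end (the suffix subtype) in 5 of the 7 genes. For RPL6 and RPL37 its junctions were at the same time the 3′ part of 1 annotated transcript and the 5′ part of another.

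The annotated first exon of the most-read known model was short in several of these genes, at 33 bases in RPL7A, 35 in RPL34 and 37 in RPL26. It was 67 bases in RPL19, 153 in RPL37, 186 in RPL6 and 242 in RPL35A. Over the 7 genes the median was 67 bases, against 257 bases over the 38 genes led by a known model, of which 1 had a first exon under 40 bases. Only exon numbers were compared, so which exon was absent was not identified. Whether first exon length bears on the lower exon number was not tested.

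The lowest ISM shares were those of RPLP2 (0.758% and 2.15%), RPLP1 (1.01% and 3.11%) and RPL15 (2.15% and 2.26%). The third stalk gene, RPLP0, stood apart from the other two with 10.9% and 21.2%. Of the members' ISM reads, 75.4% in replicate 1 and 79.2% in replicate 2 were of the suffix subtype, against 68.6% and 72.9% for RPS genes and 67.3% and 65.6% for other genes.

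A known label did not always mean that a read spanned the longest annotated transcript. For many members the junctions of an annotated transcript are also the 3′ part of a longer one, and junctions alone then cannot tell a full-length read of the first from a shorter read of the second. Such nested models held 43.7% of the members' known reads in replicate 1 and 47.5% in replicate 2 (45.6% ± 2.70, SD, n = 2). The shares were 23.8% and 27.9% for RPS genes and 12.3% and 14.9% for other genes. Known models with junctions that were not nested held 40.7% and 34.3% of all reads of the members. For RPS genes these shares were 51.8% and 43.9%, above the members, and for other genes 36.0% and 24.9%.

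A nested known model was the leading model of 15 of the 38 genes led by a known model: RPL8, RPL9, RPL10, RPL11, RPL13, RPL14, RPL15, RPL17, RPL22, RPL27, RPL27A, RPL31, RPL36, RPL41 and RPLP0. In RPL36, 96.1% and 93.1% of all reads were in nested models, which were RPL36-202 with 51.4% in each library and RPL36-201 with 44.7% and 41.6%. In RPL11, nested models had 90.7% and 80.9% of the reads. The known shares of these genes therefore depend on whether nested models are counted, and RPL36 was among the members with the highest known shares.

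By annotated type, protein-coding transcripts received 91.3% of the members' known reads in replicate 1 and 87.2% in replicate 2. Transcripts annotated with a retained intron received 7.53% and 11.5%.

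Genomic reads were concentrated in a few members. They made up 15.1% and 32.02% of the reads of RPL41, 9.90% and 18.3% of RPL15, and 7.62% and 20.03% of RPL29, a heparin-binding ribosomal protein. In RPL29 a single-interval model of 151 bases had 347 and 1044 reads. RPL10A, RPL18, RPL24, RPL35, RPL36A and RPL39 had no genomic read in either library, which allows a share of up to 0.0676% (RPL18, replicate 2) to 0.993% (RPL36A, replicate 1).

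Models with unannotated splice patterns were found in many members at low shares. Whether their junctions reflect splicing of the RNA or errors in the reads and their alignment was not tested. The 1060 NIC and 1302 NNC models of the members mostly rested on a single read (66.7% and 68.4% of them). With at least 5 reads in each library there remained 166 models, 59 of them NIC in 23 genes and 107 NNC in 38 genes. In other annotated genes 77.3% of 34959 NIC and 84.4% of 48605 NNC models rested on a single read. Of these, 700 NIC and 689 NNC models had at least 5 reads in each library. Read depth was not adjusted for. In all, 2169 of the 4069 models (53.3%) had 1 read.

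The most-read NIC model was a 5-exon form of RPLP2 with 365 and 368 reads, or 7.28% and 6.44% of the gene. RPL3 followed with a 10-exon model of 148 and 146 reads. RPL38, whose loss in mice alters Hox mRNA translation, had 2, with 141 and 123 and with 101 and 103 reads, and RPLP0 had one with 79 and 98. These counts were close between the libraries in each of the 5 models.

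The most-read NNC model was a 5-exon form of RPL23A with 561 and 521 reads, 14.0% and 11.5% of the gene. A 10-exon form of RPL4 had 584 and 283 reads, 14.8% and 7.78% of the gene, which was the largest gap between the libraries among the 10 models named. RPL12 had an NNC model with 159 and 158 reads, RPLP1 one with 152 and 196, and RPL3 one with 129 and 150. For the RPL23A and RPL4 models the share of the gene exceeded 5% in both libraries.

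Known models of the members recurred most: 79.0% of 276 had a read in both libraries, against 57.6% of the known models of other genes. The shares were 47.6% of 1337 ISM models, 25.7% for NIC and 24.96% for NNC models. In other genes they were 34.2%, 15.1% and 10.6%. The members are read more deeply than most genes, which was not adjusted for.

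The libraries were then compared with each other, gene by gene. Read levels differed little. Read numbers were tested per gene against the library totals (exact binomial test, two-sided, Benjamini-Hochberg adjustment over all genes with at least 10 reads, threshold 0.05). Of the 45 members 17 passed, of which 9 were higher and 8 were lower in the second library. Of all 10634 genes tested, 5.05% passed (2.72% higher and 2.33% lower). Among 116 other genes with at least 2000 reads, a limit chosen after seeing the data, 49.1% passed, against 15 of the 41 members above that limit, so the members' share was not above that of other deeply read genes. The log2 ratio of replicate 2 to replicate 1 had a median of 0.04 in the members and 0.01 over all genes tested, and 42 members were within 0.25 of 0.

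The largest positive ratios past the threshold were those of RPL9 (log2 ratio 0.62, adjusted p = 4.16e-07, exact binomial test), RPL41 (0.29, adjusted p = 0.0139) and RPL5 (0.15, adjusted p = 3.48e-05). The largest negative ones were those of RPL4 (-0.27, adjusted p = 1.08e-13), RPL19 (-0.23, adjusted p = 8.72e-11) and RPL37 (-0.20, adjusted p = 4.51e-08). The ratio of RPL9 was 0.26 with its pseudogene reads added. That of RPL41 moved with its genomic reads, and without them it was 0.04 (adjusted p = 0.933, exact binomial test). Counting known reads only, where the median of all genes moved to -0.26, gave 29 members past the threshold, with 25 higher and 4 lower against a background of 18.8%. RPL5 (0.060, adjusted p = 0.252) and RPL37 (-0.085, adjusted p = 0.283) no longer passed the exact binomial test on known reads only. Leaving genomic reads out gave 24 members, with 20 higher and 4 lower, against a background of 8.26% (300 genes higher and 423 lower, median -0.080).

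**Figure D4:**
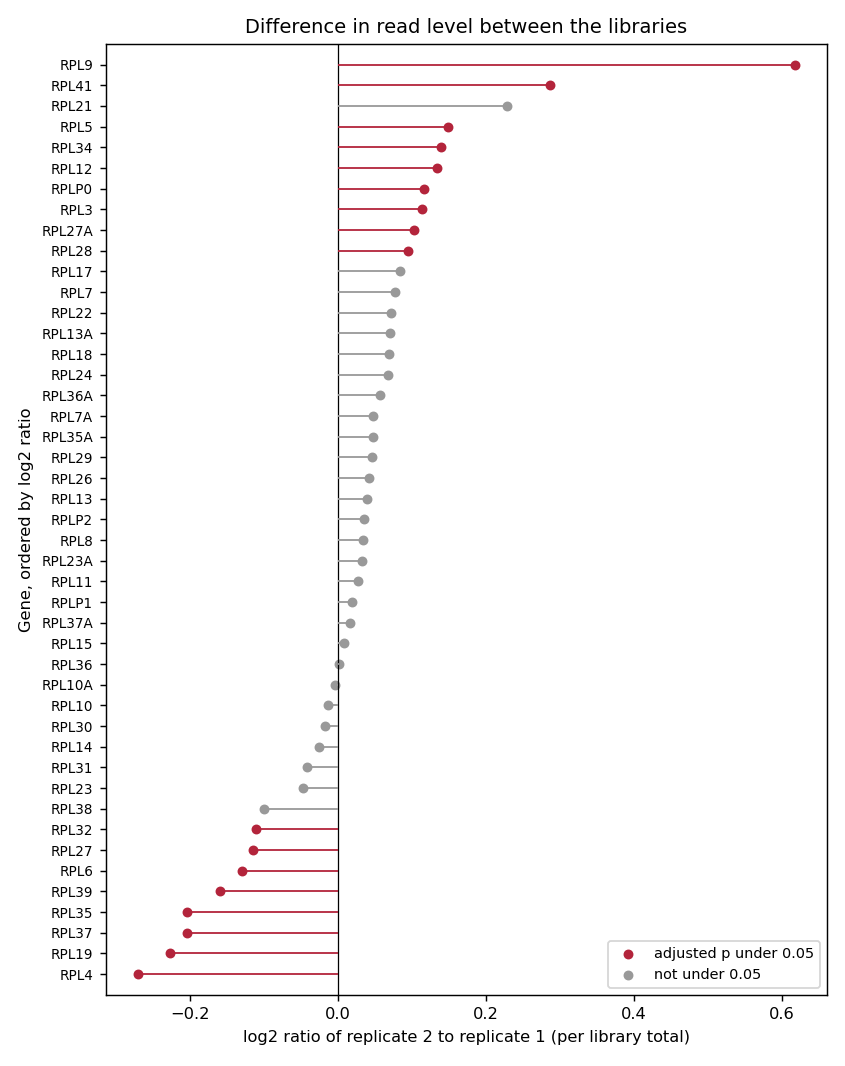
Log2 ratio of replicate 2 to replicate 1, per library total, for each of the 45 genes; red marks an adjusted p under 0.05 in the exact binomial test. The ratios run from -0.27 (RPL4) to 0.62 (RPL9), with RPL41 at 0.29 next below RPL9.

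Other genes of the translation machinery were set beside the members. Of the 32 RPS genes, 15 were higher and 3 lower in replicate 2 (median log2 ratio 0.09). Of 17 TOP mRNAs from outside the ribosome, such as the elongation factors, 4 were higher and 2 lower (median 0.04). Of 40 factors that assemble or chaperone the large subunit, 1 was higher and 4 lower (median -0.21). Of the 6 paralogs tested, RPL3L alone passed, at a log2 ratio of 1.73 (adjusted p = 3.14e-22, exact binomial test).

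The known share differed between the libraries in more members, and in one direction. By Fisher's exact test with Benjamini-Hochberg adjustment over all genes with at least 20 reads in each library, 36 of the 45 members passed, all with a lower share in replicate 2. The background was 27.1% of 6340 genes (26.9% lower and 0.268% higher), and 65.5% of the 116 other genes with at least 2000 reads, against 34 of the 41 members above that limit. The median difference was -5.68 percentage points in the members and -8.62 over all genes tested, so the members' typical difference was the smaller one. It was -3.93 points in RPS genes, -13.2 in the TOP mRNAs and -15.1 in the 60S assembly factors.

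Of the members, 44 had a lower known share in replicate 2, and the exception was RPL7A, at 0.066 points. The differences were largest in RPL3 (64.8% to 44.6%, -20.2 points, adjusted p = 1.93e-106 by Fisher's exact test), RPL5 (79.1% to 61.0%, -18.1 points, adjusted p = 9.98e-81) and RPL10 (85.4% to 67.7%, -17.7 points, adjusted p = 2.15e-111). In these genes ISM reads took up the difference: ISM shares were 25.1% and 46.8% in RPL3, 17.8% and 36.2% in RPL5, and 13.2% and 30.0% in RPL10. With known and ISM reads counted together the difference was 1.44 points in RPL3, 0.33 in RPL5 and -0.83 in RPL10. Of these, only that of RPL10 passed the threshold (adjusted p = 0.0174, Fisher's exact test). Counted in this way 9 members passed, 2 higher and 7 lower, against a background of 8.25%. The 9 that did not pass for the known share alone were RPL7A, RPL9, RPL22, RPL26, RPL34, RPL35A, RPL36A, RPL38 and RPLP2.

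The difference was larger in members with a longer coding sequence. In the 15 genes with the shortest coding sequences (75 to 384 bases, from RPL41) the median difference in known share was -2.59 points, in the middle 15 (405 to 576 bases) it was -6.68, and in the 15 longest (588 to 1281 bases, up to RPL4) it was -10.4. The median differences in ISM share were 2.12, 6.97 and 11.1 points. Over the 45 genes, which share both libraries and the pipeline, Spearman's rho of coding length with the difference was -0.47 for the known share (Pearson r -0.48) and 0.54 for the ISM share (r 0.65). RPL7A (798 bases) and RPL6 (-1.16 points at 864 bases) went against this order; their known shares were near 0 in both libraries. RPL41, the shortest, had a difference of -16.1 points, where genomic and not ISM reads were more frequent in replicate 2. RNA integrity was not given, and its part in the difference was not tested.

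**Figure D5:**
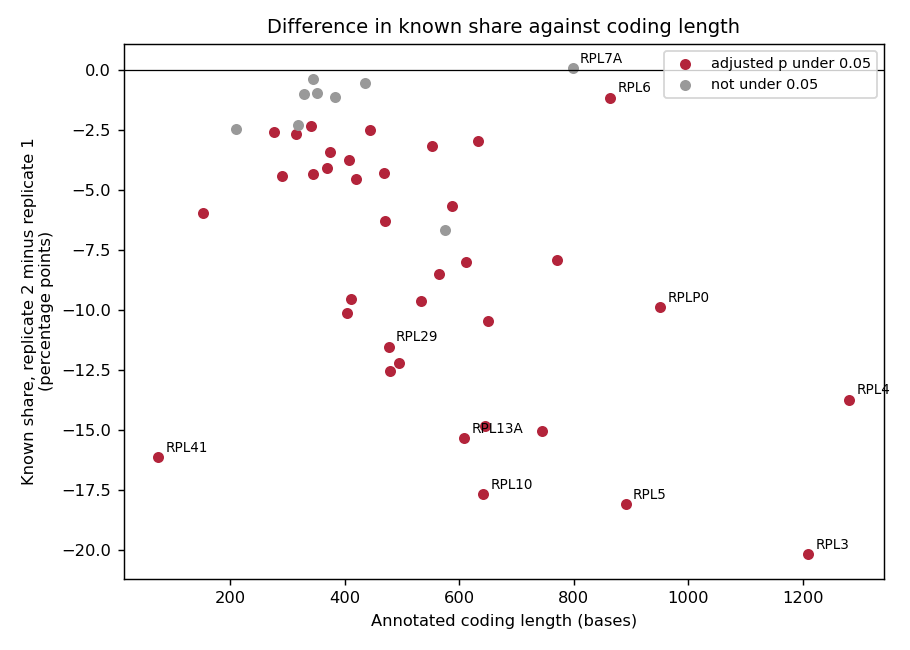
Difference in known share between the libraries (replicate 2 minus replicate 1, percentage points) against annotated coding length (bases) for each of the 45 genes; red marks an adjusted p under 0.05 in Fisher's exact test. Most genes over 588 bases lie below -5 points, while RPL7A and RPL6 lie near 0 and the shortest gene, RPL41, lies at -16.1.

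Among known models alone, the leading one had a smaller share in replicate 2 in part of the members. By Fisher's exact test with Benjamini-Hochberg adjustment, the share of the leading known model differed in 19 of the 45 genes, all lower in replicate 2, where the background was 12.5% of 1878 genes (11% lower) and 68.4% of 38 other genes with at least 2000 reads (members above that limit, 17 of 38). The smallest p-values were those of RPLP0 (RPLP0-219, 79.9% to 63.4% of known reads, adjusted p = 5.26e-116), RPL5 (RPL5-208, 95.3% to 81.6%, adjusted p = 1.19e-70) and RPL37A (RPL37A-210, 65.2% to 56.4%, adjusted p = 1.41e-20).

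In each of these 3 genes the known model second in reads over both libraries together was annotated with a retained intron and nested in a longer transcript, and its share of the gene's reads was higher in replicate 2. In replicate 1 alone the second known model of RPLP0 was the protein-coding RPLP0-203, with 813 reads against 462 in RPLP0-226. RPLP0-226 had 5.15% and 14.5% of the reads of RPLP0, RPL5-205 had 2.54% and 7.79% of RPL5, and RPL37A-201 had 32.7% and 39.6% of RPL37A. Whether these reads stem from RNA with a retained intron or from shorter reads of other transcripts was not tested.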

How the data were processed

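Direct RNA reads of GM12878 were analysed in 2 replicate libraries. The authors deposited raw read counts per transcript model, with TALON in the table's name; minimap2 and hg38 come from the submitters' processing notes, and versions and read filters are not given in the sources used here. The deposited exon number and model length are other, non-measured properties. All 23533 known models matched GENCODE release 29, which gave coordinates, coding lengths and exon structures. All count columns were matched to a sample by title (0 unmatched).

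Counts were summed per gene. With 1 group, tests compare these libraries and not conditions: exact binomial tests for levels and Fisher's exact tests for shares (scipy 1.17.1), each adjusted over all genes tested, with 0.5 reads added for log2 ratios. A minimum of 20 reads per library, in known models, applied to leading models, and only genes with more than 1 known model were tested. Scripts were tested on simulated data. Scaling alternatives used edgeR 4.0.16 and DESeq2 1.42.0. Limits of a count of 0 rest on 3 reads. Sequences were taken from GENCODE and RefSeq.

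Named genes were the 5 highest and 5 lowest by level, the stalk genes, the 3 most extreme by ratio and by known, ISM and genomic share, the 3 smallest p-values, genes led by a model that is not known, and the 5 most-read NIC and NNC models; genes of known assembly or tunnel roles, examples of nested models and pseudogenes were chosen after their values were seen. The rule for members uses gene names only, but this gene group and the lists were chosen with earlier results of these data known.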

Additional observations from a re-analysis of the deposited data

How the results depend on the processing

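The same model led in both libraries for all 45 genes under each alternative run (known models only, known and ISM models, genomic models left out). The members' share of the library moved with the models counted: 14.4% with genomic models left out, 16.8% with models of 2 or more exons only, 13.96% with models having 2 or more reads in each library, 17.3% with known models only and 14.7% with pseudogenes and readthrough genes included. The first 4 settings count fewer reads of other genes, and the last adds reads to the members. Leaving out 1 library gave 12.6 to 12.7% for this share, 65.5 to 72.4% for the known share and 22.1 to 28.6% for the ISM share.

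Members past the threshold for level numbered 29 with known reads only (background 18.8%), and 15 to 24 under the other settings (backgrounds 2.78 to 14.4%). With known and ISM reads counted together 9 passed for the known share (background 8.25%). The differences of RPL3 and RPL5 then changed sign, to 1.44 and 0.33 points. Neither passed the threshold (adjusted p = 0.0736 and 0.767, Fisher's exact test). For RPL3 and RPL5 the construction moves ISM reads into the matching class. The log2 ratio of RPL41 reversed to -0.022 with known and ISM models only (adjusted p = 0.971, exact binomial test) and was 0.037 with genomic models alone left out; the cause was not tested. For the leading model, 35 genes passed with all models in place of known models (background 29.7%), and 35 with ISM models counted in (36.6%). NIC and NNC models numbered 324, 102 and 48 at minimums of 2, 10 and 20 reads. RPL41, RPL5 and RPL37 no longer passed for level with known reads only; the cause was not tested. Adding pseudogene reads to their gene, an alternative chosen after seeing the data, gave 18 members past the threshold for level. The background was 4.95% (523 of 10570 genes).

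No paired analysis was possible because the libraries form 1 group. With 1 library on each side, a difference between libraries has no replicate check.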
